A study of Rattus norvegicus with 3 samples.

Results

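Seh1 is a protein of the nuclear pore complex, and ChIP-seq with an antibody to it maps the stretches of chromatin that are recovered with the protein, here in rat cells of the oligodendrocyte lineage. The account covers 10 receptor genes through which oligodendrocyte progenitor cells (OPC) receive growth factors: Pdgfra, Cspg4, Fgfr1, Fgfr2, Fgfr3, Igf1r, Egfr, Erbb2, Erbb3 and Erbb4. Their OPC peaks were the rows of the authors' annotated table in which 1 of the 10 was the nearest gene, measured to the transcription start site (TSS). This gave 19 of 9084 annotated peaks, at 7 of the 10 genes. Pdgfra, Cspg4 and Egfr were nearest to no OPC peak.

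All libraries came from the forebrain of Sprague Dawley rats on postnatal day 1 to 2, with no transgene or deletion named. OPC were grown with PDGF-AA at 20 ng/ml, bFGF at 20 ng/ml, NT3 at 1 ng/ml and CNTF at 10 ng/ml, so that ligands of several of these receptors were in the medium. Immature oligodendrocytes (iOL) had received triiodothyronine (T3) at 60 nM for 1 day, with PDGF-AA, bFGF and NT3 withdrawn. There was 1 Seh1 library of each stage and 1 IgG library of iOL, which is not analysed here. The labels do not say how many pups were pooled. The files hold no expression values, so neither the purity of the cells nor the activity of the receptor genes was measured. With 1 library per stage no value has a replicate error, no comparison carries a p-value, and read depth is unknown.

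Most receptor tyrosine kinases pair up when a growth factor binds outside the cell. They then phosphorylate each other and pass the signal to the Ras-MAPK and PI3K-Akt routes. In OPC, PDGF-AA acting on Pdgfra drives division and survival, FGF receptors hold the cells in a dividing state, and Igf1r and the neuregulin receptors of the ERBB family act on survival and on later myelination. Cspg4, known as NG2, is a proteoglycan of the OPC surface that binds PDGF-AA and bFGF and has no kinase of its own. These statements are background and were not measured here.

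Among coding genes at large, 30.1% (5586 of 18539 with a curated RefSeq transcript) were nearest to an OPC peak. The length of genome around each gene, which sets how many peaks can fall nearest to it, was not measured. The receptors' count of 7 of 10 is therefore a description and not an excess. Within 10 kb of the TSS a peak was present at 4 receptors, Erbb2, Fgfr3, Erbb3 and Fgfr1, beside 11.1% of coding genes, and within 100 kb at all 7, beside 25.9%. Within 1 kb it was present at Erbb2 alone, beside 4.46% of coding genes. None of the 19 peaks was classed as a promoter, a class that held 4.02% of all annotated peaks. The Erbb2 peak, 118 bp from its TSS, was classed as exon, so this count of 0 depends on how the classes are drawn. Taking 3 counts as the limit that a count of 0 allows, 19 peaks leave room for a share of up to 15.8%, and the exact 95% binomial interval reaches 17.6%. Both cover counting error only.

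**Figure D1:**
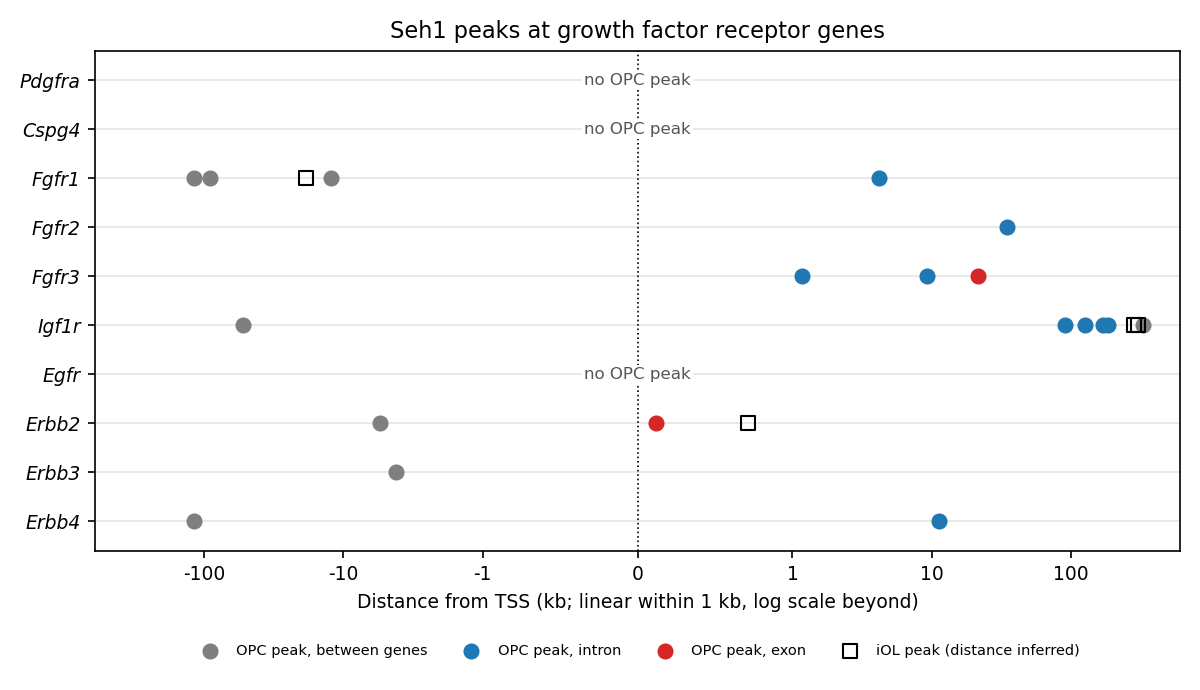
Signed distance from the TSS in kb (negative is upstream) of each OPC peak of the 10 receptor genes, as filled circles coloured by annotation class. Open squares are the iOL peaks tied to Igf1r, Fgfr1 and Erbb2 in the text. The iOL peaks in the gaps around Pdgfra and Egfr are not drawn. Igf1r has 6 OPC peaks, all over 50 kb from its TSS, Erbb2 has a peak at 118 bp, and Pdgfra, Cspg4 and Egfr have none.

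The ERBB family held the peak closest to a TSS. Erbb2 encodes a receptor that binds no ligand itself and serves as the partner of the other ERBB receptors. At least 2 OPC peaks were nearest to 10.4% of coding genes, Erbb2 and Erbb4 among them. One of the 2 at Erbb2 lay in exon 1 of 27, 118 bp from the TSS (chr10:86367612-86367816, rat build rn6), with a score of 7.66. The score is the authors' own value per peak, given by their peak caller and not defined in the file. The other Erbb2 peak lay between genes at -5473 bp, in an L2a LINE repeat (chr10:86362021-86362225), and its score of 8.94 was the highest of the 19. Over the whole list, 16.2% of OPC peaks scored 8.94 or more, so this value was not extreme.

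Erbb3, the neuregulin receptor whose own kinase is weak, had 1 peak between genes at -4194 bp in a B1_Rn SINE repeat (chr7:3014404-3014608, score 7.02). Within 100 kb of it lay 3 OPC peaks of other genes, the most around any of the 19. Erbb4, a neuregulin receptor with a very long gene, had 2 peaks of score 7.02. The nearer was at 11219 bp in intron 1 of 29, in a LINE repeat (chr9:76167615-76167819), and the farther lay between genes at -117093 bp (chr9:76295927-76296131). Egfr, the receptor for EGF and TGF-alpha, was not nearest to any OPC peak. Sec61g and C1d were the closest genes on either side of Egfr in gene order that had an OPC peak. Between Egfr and C1d came 6 other coding genes without an OPC peak, so the stretch is not particular to Egfr. The closest OPC peaks of Sec61g and C1d, at 757609 and 666718 bp from their own TSS, were 2058.8 kb apart. By count, 1.78% of the 9060 gaps between neighbouring OPC peaks were as wide. A wide gap holds more genome than a narrow one, so this share understates how often a position falls into such a gap. A single iOL peak lay inside the gap around Egfr (chr14:99939382-99939590), and it could not be tied to a gene.

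The FGF receptors showed 3 different layouts. Fgfr3, which is expressed by progenitors and by astrocytes, had 3 peaks, all downstream of its TSS and spread over 20.6 kb, and 3.87% of coding genes had as many. The first lay at 1174 bp in intron 1 of 16, inside a CpG island (chr14:82285832-82286036, score 7.66). It was the only one of the 19 peaks with the CpG island label, which 5.37% of all OPC peaks carried. The second lay at 9177 bp in intron 6 of 16 (chr14:82277829-82278033, score 8.30). The third, at 21536 bp, was in exon 13 of 14 of the neighbouring gene Letm1, a mitochondrial inner membrane protein (chr14:82265470-82265674, score 7.66).

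Fgfr1, a main receptor for bFGF, had 4 peaks over 122.1 kb, and 3 of them were upstream. A peak in intron 1 of 16 lay at 4205 bp (chr16:71301992-71302196, score 7.66). The upstream peaks lay between genes at -12232 bp (chr16:71318429-71318633, score 7.66), at -90370 bp in a SINE repeat (chr16:71396567-71396771, score 7.66) and at -117641 bp in another SINE repeat (chr16:71423838-71424042, score 7.02). Of coding genes, 1.63% had at least 4 OPC peaks. Fgfr2, the receptor that with Fgfr1 acts on myelin growth in oligodendrocytes, had 1 peak, at 34696 bp in intron 2 of 15 (chr1:200662130-200662334, score 7.02).

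Igf1r, the receptor for IGF-1, had the most peaks of the 10 genes. It held 6, a number that 48 coding genes reached or passed (0.259%). These spanned 382.3 kb, and the length of genome around Igf1r was not measured, so the number is a description only. All 6 were far from the TSS. A peak between genes lay at -52614 bp (chr1:128872205-128872409, score 6.38). The next 4 shared intron 2 of 20, at 89596 bp (129014415 to 129014619, score 6.38), 126358 bp (129051177 to 129051381, score 7.02), 169071 bp (129093890 to 129094094, score 7.02) and 184219 bp (129109038 to 129109242, score 6.38). The bases between these intron peaks ran from 14.9 to 42.5 kb. The last lay at 329498 bp in a CT simple repeat between genes (chr1:129254317-129254521, score 7.66). Of the 6 scores 3 were 6.38, the lowest value among the 19, which was above only 1.9% of the list. Igf1r therefore had the most peaks and also the lowest scores.

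Pdgfra and Cspg4, the genes that mark OPC, had no OPC peak, and no OPC peak was annotated to a transcript of either or of Egfr. For Pdgfra the surrounding stretch without peaks was wide. It ran from an intergenic peak of the neighbouring kinase gene Kit (chr14:35182307-35182511, -32801 bp from the Kit TSS, score 8.30) to an intergenic peak of Chic2 (chr14:35805499-35805703, 121944 bp, score 6.38), a gap of 623.0 kb. The median gap between neighbouring OPC peaks was 130.6 kb. By count 12.8% of these gaps were as wide as that of Pdgfra, with the limit given for Egfr. In the Pdgfra gap lay 2 iOL peaks, chr14:35416593-35416801 and chr14:35540889-35541097. The rule could not tie them to Pdgfra or to Gsx2, the gene between Pdgfra and Chic2. For Cspg4 the stretch was short. Peaks of Odf3l1 (chr8:61524379-61524583, score 7.66) and Snx33 (chr8:61581634-61581838, score 7.66), its neighbours on either side, were 57.0 kb apart with no iOL peak between them. By count 70.8% of all gaps were at least that wide.

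Sequences before the TSS were compared because the receptors differed in how close a peak came to the TSS. RefSeq windows of the 250 bases before the TSS, from assembly GRCr8, were found for 8 of the 10 genes, all but Fgfr1 and Erbb3. They are not in the coordinates of the peaks, which are on rn6. Printed here are Erbb2 and Fgfr3, which had the peaks nearest to a TSS, and the 3 genes with no peak. Each is written 5′ to 3′ on the strand of the gene and ends before the first annotated base of the gene, so some are shorter than 250 bases. Capitals mark CANNTG, the E-box core that bHLH factors such as Olig2 recognise.
Erbb2: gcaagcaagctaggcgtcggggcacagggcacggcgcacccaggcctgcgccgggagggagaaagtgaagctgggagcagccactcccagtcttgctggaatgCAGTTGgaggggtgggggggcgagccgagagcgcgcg
Fgfr3: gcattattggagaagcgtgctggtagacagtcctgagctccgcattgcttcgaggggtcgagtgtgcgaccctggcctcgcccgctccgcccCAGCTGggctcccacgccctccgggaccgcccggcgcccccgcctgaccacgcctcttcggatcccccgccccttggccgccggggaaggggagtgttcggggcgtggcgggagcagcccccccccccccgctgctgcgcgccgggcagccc
Pdgfra: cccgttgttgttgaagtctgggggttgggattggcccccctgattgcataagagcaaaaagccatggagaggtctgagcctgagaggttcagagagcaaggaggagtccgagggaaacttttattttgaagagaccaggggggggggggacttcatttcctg
Cspg4: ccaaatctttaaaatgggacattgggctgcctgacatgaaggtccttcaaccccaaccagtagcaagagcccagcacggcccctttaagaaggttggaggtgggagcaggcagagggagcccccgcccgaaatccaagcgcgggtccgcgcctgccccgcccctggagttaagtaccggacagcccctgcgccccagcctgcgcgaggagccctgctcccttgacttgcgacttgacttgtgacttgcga
Egfr: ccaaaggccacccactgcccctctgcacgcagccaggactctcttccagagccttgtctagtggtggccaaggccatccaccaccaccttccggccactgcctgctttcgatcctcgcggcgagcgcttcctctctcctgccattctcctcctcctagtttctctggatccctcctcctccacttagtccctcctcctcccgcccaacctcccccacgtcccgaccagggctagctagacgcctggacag

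These stretches cover GRCr8 chr10:83907351-83907490 on the plus strand for Erbb2, chr14:81227216-81227459 on the minus strand for Fgfr3, chr14:33408605-33408766 on the minus strand for Pdgfra, chr8:66160692-66160941 on the plus strand for Cspg4 and chr14:95378376-95378625 on the plus strand for Egfr. Full windows can also hold bases of the annotated gene. Of the 250 bases, those before the first annotated base numbered 40 at Igf1r, 140 at Erbb2, 162 at Pdgfra, 223 at Erbb4 and 244 at Fgfr3. The values of the Igf1r window thus come mostly from annotated gene sequence. The full windows of the 5 receptors with a peak were richer in G and C than those of the 3 without. Their GC content was 69.2% in Erbb2, 73.6% in Erbb4, 74.4% in Fgfr3, 76.8% in Fgfr2 and 79.6% in Igf1r. It was 47.2% in Pdgfra, 62.0% in Cspg4 and 63.6% in Egfr, beside a median of 57.2% over 15738 windows of coding genes. Fgfr1 and Erbb3, both with a peak within 10 kb of the TSS, had no window. GC content of all coding genes split by OPC peak is not given, so these values only describe the 8 genes. CpG dinucleotides numbered 19 to 45 in the windows of genes with a peak and 4 to 14 in those without. The comparison was chosen after the peaks were known and the 8 windows carry no test, and for Igf1r, Fgfr2 and Erbb4 no peak lay within 10 kb of the TSS.

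The E-box core CANNTG, which reads the same on both strands, was present in 6 of the 8 full windows: once each in the 5 genes with a peak and in Pdgfra, and not in Cspg4 or Egfr. In coding genes at large 60.7% of windows held it. The single matches of Pdgfra, Igf1r and Erbb4 were not found in the bases before the first annotated base of the gene. For Pdgfra the match therefore lies in bases left out above. The GC box GGGCGG or its complement CCGCCC was found in 7 of the 8, all but Pdgfra, and in 47.0% of coding windows. No CANNTG match overlapped a GC box match in the 8 windows. A match describes letters in a window and not binding.

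Most scores of the receptor peaks were at or below the middle of the list. They ran from 6.38 to 8.94 with a median of 7.02 over the 19, beside a median of 7.66 over all 9084. Scores below 10 fell on multiples of 0.638, so these values span only 10 to 14 steps, and the medians of the receptors and of the list are 1 step apart. Of the 19 peaks 2 scored above the list's median (10.5%, 95% exact binomial interval 1.3 to 33.1%, which covers counting error only), beside 27.6% of the list. These were the upstream Erbb2 peak and the Fgfr3 peak in intron 6. Another 7 equalled the median and 10 were below it. Without Igf1r the receptors' median was 7.66. The focus ratio, the caller's fraction from 0 to 1 for each peak, ran from 0.6 in Fgfr1 to 0.923 in Igf1r with a median of 0.750, beside 0.778 over all peaks.

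**Figure D2:**
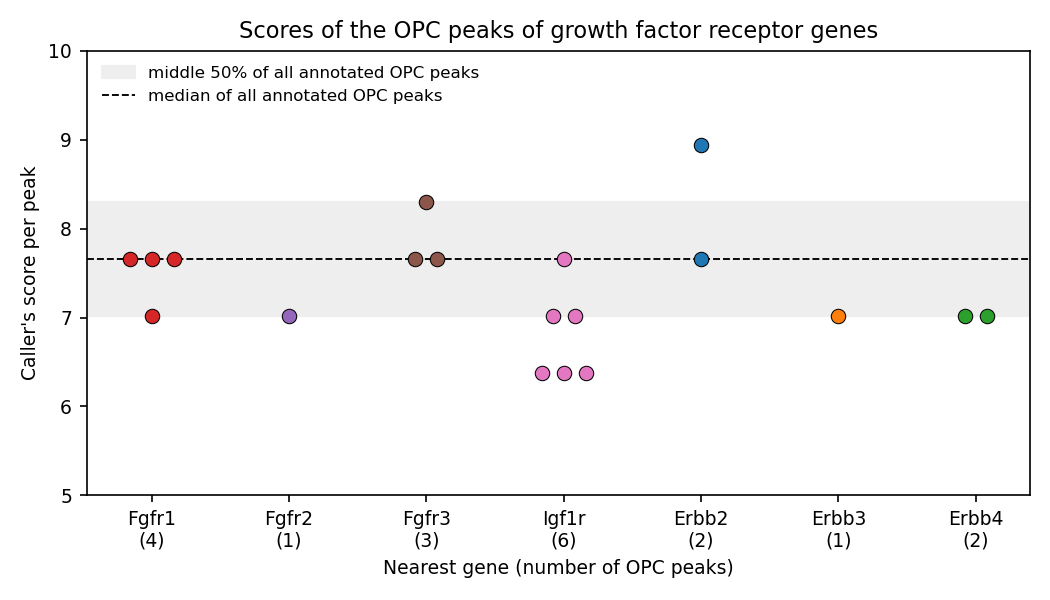
Caller's score of each OPC peak (vertical axis, linear) by nearest receptor gene, 1 point per peak, with equal scores drawn side by side. The dashed line is the median of all 9084 annotated OPC peaks, 7.66, and the band their quartiles, 7.02 to 8.30. Only 1 Erbb2 peak and 1 Fgfr3 peak lie above the line.

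By annotation, 9 of the 19 receptor peaks lay in introns, 8 between genes and 2 in exons. Over all annotated peaks introns held 29.4%, intergenic sites 56.7% and exons 6.8%. The exact 95% binomial interval of the intron share, 24.4 to 71.1%, covers counting error only and treats peaks of 1 gene as independent. Of the 9 intron peaks 4 lay in 1 intron of Igf1r. Repeats held 6 of the 19, namely 3 SINE, 2 LINE and 1 simple repeat, beside 33.2% of the list. The median distance to the TSS, without regard to side, was 34.7 kb for the receptors and 34.8 kb for all peaks. Upstream peaks numbered 7 and downstream peaks 12, where 42.4% of the list was upstream.

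No receptor peak of OPC overlapped an iOL peak, 0 of 19, beside 1.73% of all annotated OPC peaks. A count of 0 among 19 does not stand apart from that share, and by the same limit of 3 counts it allows a share of up to 15.8%. The receptor nearest to having a peak in both stages was Erbb2. An iOL peak (chr10:86368202-86368410) began 385 bases after the exon 1 peak of OPC, 710 bp downstream of the Erbb2 TSS as inferred from the OPC distances. It was the only iOL peak within 1 kb of a receptor peak, 1 of 19, beside 2.88% of the list. It lay beyond the OPC peaks of Erbb2 rather than between them, so it is tied to the gene by closeness alone.

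Between OPC peaks of the same receptor lay 3 iOL peaks, at Igf1r and Fgfr1. Since positions nearest to 1 TSS form an unbroken interval, these iOL peaks have the same nearest TSS as the OPC peaks around them. Igf1r had 2, at 280.0 kb (chr1:129204780-129204988) and 302.5 kb (chr1:129227340-129227548) from its inferred TSS. Both lay between the last intron peak and the far intergenic peak of OPC, the second 26.8 kb short of the latter. Fgfr1 had 1, at -18386 bp (chr16:71324581-71324789), 5947 bases from the OPC peak at -12232 bp. Among genes with at least 2 OPC peaks, 29.2% had an iOL peak in between, and among iOL peaks 13.2% lay so. Fgfr3, Erbb2 and Erbb4 also had several OPC peaks and had none between them, and Fgfr2 and Erbb3, with 1 peak each, could not have any.

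The distance from a receptor's OPC peak to the nearest iOL peak varied by gene. At Erbb2 it was 385 and 5976 bases, at Fgfr1 it ran from 5947 bases to 42.1 kb, and at Fgfr3 from 33.0 to 53.3 kb. The Fgfr2 peak was 58.5 kb and the Erbb3 peak 102.8 kb away. At Igf1r the range was 26.8 to 257.4 kb. Both Erbb4 peaks were over 1 Mb from any iOL peak, at 1001.8 and 1130.1 kb. An iOL peak lay within 10 kb of 3 of the 19, beside 10.3% of the list, and within 50 kb of 9, beside 34.9%. The median over the 19 was 53.3 kb and over all annotated OPC peaks 88.3 kb, and peaks of 1 gene are not independent of each other.

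**Figure D3:**
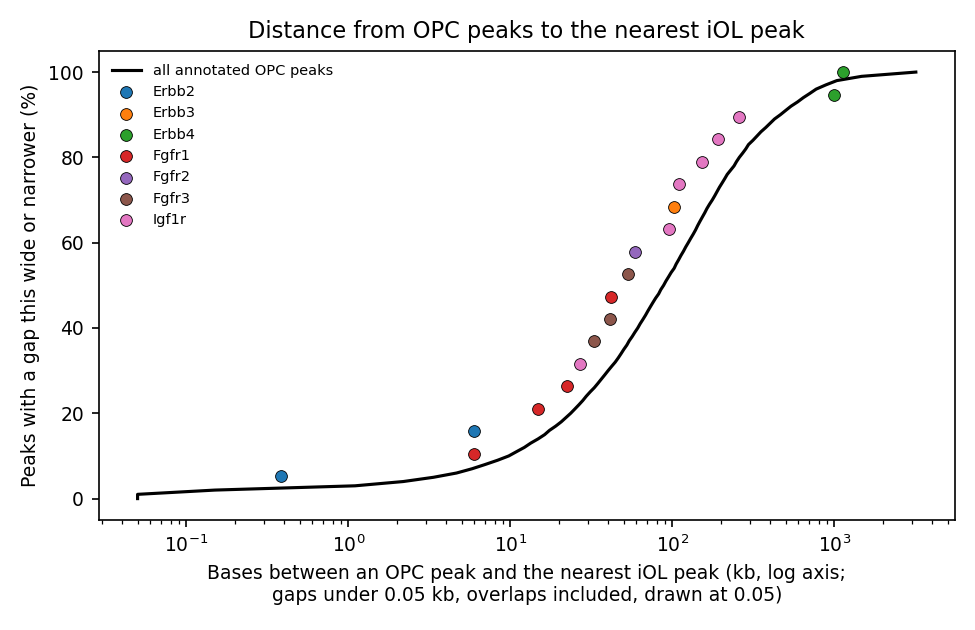
Percent of OPC peaks (vertical axis) whose gap to the nearest iOL peak is as wide as the value on the horizontal axis or narrower (kb, log axis), for all annotated OPC peaks (line) and for the 19 receptor peaks coloured by gene (points). Erbb2 and Fgfr1 hold the narrowest gaps and Erbb4 the 2 widest.

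The wider pathway was described with 5 lists of 87 genes in all, of which 52 were nearest to an OPC peak, beside the 30.1% of coding genes given above. The shares of all lists carry the same limit on surrounding genome, and 2 of the 87 genes have no curated transcript. Within 10 kb of a TSS the count was 20 of 87, beside 11.1% of coding genes. Within 1 kb it was 16, beside 4.46% of coding genes.

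Among 11 other receptors 7 had a peak. The nearest were those of Ntrk2, the BDNF receptor (404 bp, in a CpG island of intron 1), Cntfr, the receptor subunit for the CNTF in the medium (promoter, -405 bp), Fgfr4 (-3953 bp, score 12.1), Lifr, which pairs with Cntfr (6837 bp), and the decoy-like FGF receptor Fgfrl1 (12511 bp). The Cntfr peak scored 7.02, and a peak within 1 kb was present at 4.46% of coding genes. Pdgfra, the receptor for PDGF-AA in the same medium, had no peak, beside 30.1% of coding genes that had one. Ntrk2 had 6 OPC peaks, as many as Igf1r, and 3 iOL peaks between them. Ntrk3, the NT3 receptor, had 2 peaks over 1 Mb away, at 1331787 and 1357068 bp, and the second overlapped an iOL peak by 88 bp.

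Of 25 ligands and binding proteins 14 had a peak, and 6 had one within 1 kb, beside 30.1% and 4.46% of coding genes. The nearest were at Nrg1, the neuregulin that binds Erbb3 and Erbb4 (promoter, -116 bp), Hbegf, a ligand of Egfr (140 bp, CpG island), Ereg, another Egfr ligand (promoter, -336 bp), and the Igf1r ligands Igf2 (promoter, -378 bp) and Igf1 (promoter, -575 bp). Scores of these 5 peaks were 7.02 or 7.66. Pdgfa, the ligand gene of Pdgfra, had 4 OPC peaks, the nearest at 13112 bp in intron 6 of 7 (score 8.30), with 2 iOL peaks between them.

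Of 28 transducers 15 had a peak, among them the Ras activator Sos1 (promoter, -110 bp), the adaptor Grb2 (286 bp, CpG island), Hras (960 bp) and the phospholipase Plcg1 (10581 bp). Of 15 inhibitors 11 had one, among them Spry4 (642 bp, CpG island), Errfi1, an inhibitor of ERBB kinases (promoter, -798 bp), Nf1, which switches Ras off (-7575 bp), and the MAPK phosphatase Dusp4 (-24015 bp). Of 8 targets 5 had a peak: Etv5 (339 bp, CpG island), Ccnd1 (-3170 bp), Myc (34938 bp), Jun (52971 bp) and Etv1 (506621 bp). The Jun peak, in a LINE repeat, overlapped an iOL peak by 141 bp. It and the far Ntrk3 peak were the 2 of the 98 peaks of the 5 lists that did, beside 1.73% of all annotated OPC peaks. These 2 of 98 therefore do not stand apart from the list.

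**Figure D4:**
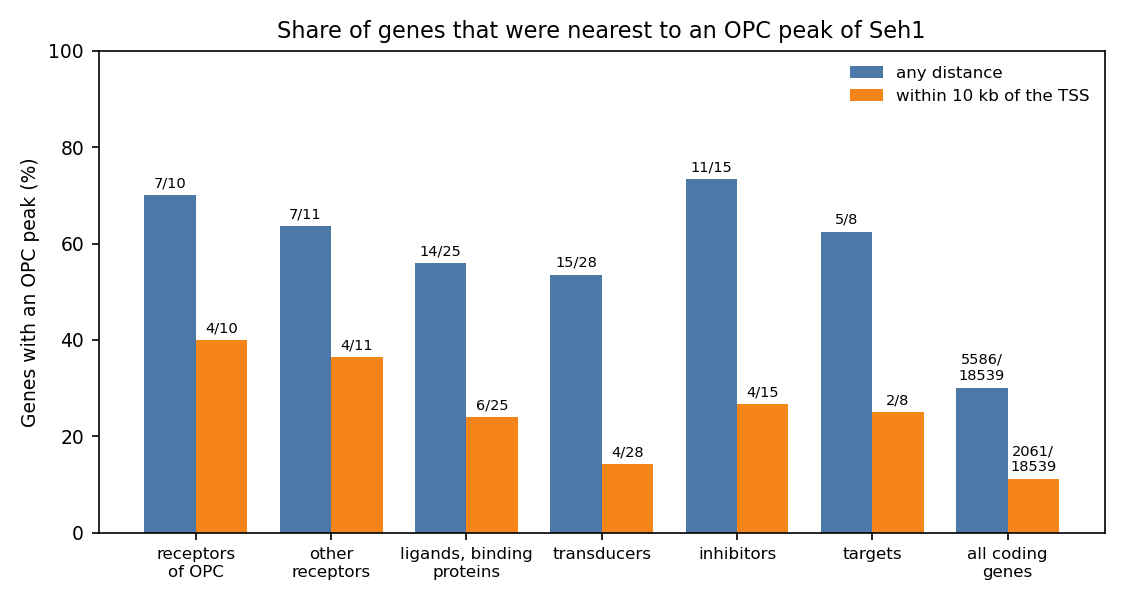
Percent of genes nearest to at least 1 OPC peak (bars from 0), at any distance and within 10 kb of the TSS, for the 10 receptors, the 5 pathway lists and all 18539 coding genes, with counts above the bars. At any distance the receptors stand at 7 of 10 and coding genes at 30.1%. The bars carry no test, and the genome around each gene was not measured.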

How the data were processed

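Bowtie2 and HOMER are named without versions in the submitters' processing notes, with builds rn6 and hg18. How reads were filtered and peaks called, and the read totals, are not stated there. The authors deposited a list of positions for Seh1 in OPC (9117 peaks of 205 bp) and in iOL (6704 of 209 bp). They also deposited a table with a score, a focus ratio (a fraction) and a distance per peak, which per the file headers is output of annotatePeaks.pl (HOMER) for rn6. That table is recorded under iOL, but all 9084 intervals equal OPC intervals and 0 equal iOL intervals, so it was read as the annotation of OPC. Its header names IgG of iOL beside Seh1 of OPC. The 33 OPC peaks without annotation were left out.

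Genes were matched by gene ID to a RefSeq table of assembly GRCr8, used for names, gene order and promoter windows (99.2% of intervals matched). The background was the 18539 coding genes with a curated transcript. Overlap meant at least 1 bp. An iOL peak was tied to a gene when both flanking OPC peaks had that nearest gene. A TSS was inferred where 2 or more OPC distances gave 1 position. Interval counting was tested on simulated data (50 intervals). Python 3.11.15, pandas 2.3.3 and scipy 1.17.1 were used. No test was made between stages or lists. The receptors and the pathway lists were chosen with earlier results of these data known. All 10 receptors were named with every peak, and of each pathway list the 5 genes with the peak nearest to a TSS, except that 2 genes are not reported here; Ntrk3 and Pdgfa were named beyond this rule after their values were seen. Alternatives on distance, repeats, score, overlap and gene assignment were computed.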

Additional observations from a re-analysis of the deposited data

How the results depend on the processing

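Each setting was tried alone. The 7 receptors with an OPC peak became 4 with peaks within 10 kb of the TSS and 2 with scores above the list's median, and their 19 peaks became 6 and 2. With peaks counted only inside a transcript of the receptor, a setting chosen after seeing the data, 10 peaks at 6 receptors remained. The 52 pathway genes became 20 within 10 kb and 21 above the median score. Over all coding genes the share with a peak went from 30.1% to 11.1% under either setting. The overlap count of 0 became 1 when any iOL peak within 1 kb counted. The median score of 7.02 became 7.66 without Igf1r. A limit of 100 kb and the removal of repeats kept each count within 1.5 times, and the 3 iOL peaks between OPC peaks did not change under either other rule. No paired analysis was possible because each group has 1 library. The depth of the libraries is unknown, so a missing peak is not shown to be missing Seh1.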

Other observations

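Peaks in several exons of 1 transcript were rare in OPC, and the transcript with the most was that of Nf1, the Ras inhibitor of the pathway lists. It was picked after its values were seen. Of 586 transcripts with an exon peak 18 had peaks in at least 2 exons. Nf1 had 8, from exon 20 to exon 42 of 61, with scores from 8.30 to 13.4 and a median of 9.57, beside 7.66 over all annotated peaks. By nearest TSS these 8 belong to Omg and Evi2a, so they are not among the Nf1 peaks counted above. None of these 8 overlapped an iOL peak, beside 1.73% of all annotated OPC peaks that did. So few peaks do not set Nf1 apart from the list in overlap. None of the 10 receptor genes had a peak in more than 1 of its exons, and Erbb2 alone had any. With 18 of 586 transcripts above 1 exon, this does not set the receptors apart either.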
